A study of Mus musculus with 11 samples.

Results

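The fibroblast growth factor (FGF) receptor genes Fgfr1 to Fgfr4 and 6 genes known as feedback products of FGF signalling (Spry1, Spry2, Spry4, Dusp6, Etv4 and Etv5) were followed across stable lines of NSC34, mouse cells made by fusing neuroblastoma with embryonic spinal cord and used as a model of motor neurons. The genes were taken by name, from the probe sets whose annotation gives 1 of these 10 symbols and no other. These were 124 of the 179496 probe sets with 1 symbol, and 10 of the 15803 genes measured. Of them Fgfr2 was chosen by its measured difference between the control lines, which is therefore given as a description without a test. The lines carried a pSUPERIOR hairpin vector, introduced with lipofectamine 2000 and kept by puromycin selection. The hairpin was directed against Tardbp, which encodes TDP-43, on 4 arrays (shTardbp 1 to 4), against GFP on 4 (shGFP 1, 2, 3 and 5) and against Renilla luciferase on 3 (shLuciferase 1, 2 and 4). All 11 arrays thus come from vector-bearing, puromycin-selected clones, and no untransfected cells were analysed here. Nothing in the labels tells if replicate arrays hold different clones, different cultures or one culture. A p-value therefore measures only the spread between these arrays, which may be technical, and a hairpin cannot be told apart from the clone that carries it.

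FGF receptors are receptor tyrosine kinases that bind FGF ligands together with heparan sulfate. The activated receptor phosphorylates the adaptor Frs2 and drives the Ras, Raf, MEK and ERK kinases. ERK activity raises transcripts that close a feedback loop: the Sprouty proteins (Spry1, Spry2 and Spry4) restrain signalling between the receptor and Raf, the phosphatase Dusp6 removes the activating phosphates of ERK, and the ETS transcription factors Etv4 and Etv5 carry the signal to target genes. In the nervous system FGF signalling patterns the neural tube and affects neuron survival and axon growth.

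The median probe set of an array was between 6.82 and 6.92 (log2). Tardbp itself was at 9.08 to 9.42 on the 7 control arrays, and all 4 shTardbp arrays lay below, down to 8.80. Of 17 neuron and motor neuron markers, 14 lay above the 25th percentile of probe set values (4.46 to 4.57) on every array. Chat, Slc5a7 and Mnx1, which help define cholinergic motor neurons, lay at or below it on every array. The mean over the 6 fibroblast markers was 5.18 to 5.35 in shTardbp and 5.62 to 5.76 in the controls, with Dcn and Pdgfra lower (log2 -1.61 and -0.92). The other 4 (Col1a1, Col1a2, Col3a1 and Thy1) had differences of -0.02 to 0.05. The mean over 5 neuroblastoma markers was 7.86 to 7.98 in shGFP, 7.55 to 7.80 in shTardbp and 7.70 to 7.79 in shLuciferase, and so highest in shGFP, as Spry1 was. In shTardbp Hand2 and Dbh fell (-0.39 and -0.46) and Th rose (0.26). Of the 17 neuron markers Slc18a3 (read by 1 probe set) and Isl2 rose (0.63 and 0.26), and 15 did not pass against both controls. Among these, Isl1 had means of 8.66 in shGFP, 7.55 in shLuciferase and 8.15 in shTardbp. It was lower than in shGFP (-0.51, limma adjusted p = 0.00429) and higher than in shLuciferase (0.60, adjusted p = 0.00282). Such opposite calls were made for 0.487% of all genes. Glial markers had means of 4.86 to 5.13 and immune markers of 4.50 to 4.80 over all arrays, with Ptprc and Aif1 at or below the 25th percentile on every array. The part of these shifts in the results below was not tested. In such bulk RNA, fewer cells that express a gene and less RNA per cell cannot be told apart.

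Among the 10 genes, Spry2 was lower in shTardbp than in each control line, while Fgfr2 was high in shLuciferase, Dusp6 low in shLuciferase and Spry1 high in shGFP. Against the mean of both control groups, 4 of the 9 genes other than Fgfr2 passed the threshold as lower (Fgfr3, Spry1, Spry2 and Etv5) and 0 as higher (limma, adjusted p under 0.05). At an unadjusted p under 0.05 there were 5 lower and 2 higher of the 9, and 20.5% lower and 17.2% higher of all genes. Over all 15803 genes 30.5% passed, 17.0% as lower and 13.5% as higher. The median log2 change was -0.11 over the 9 genes, -0.20 with Fgfr2 and 0.00717 over all genes. On 3 genes (Fgfr1, Spry2 and Etv5) the ranges of the 4 shTardbp arrays and the 7 controls did not meet, which was so for 18.3% of all genes.

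**Figure D1:**
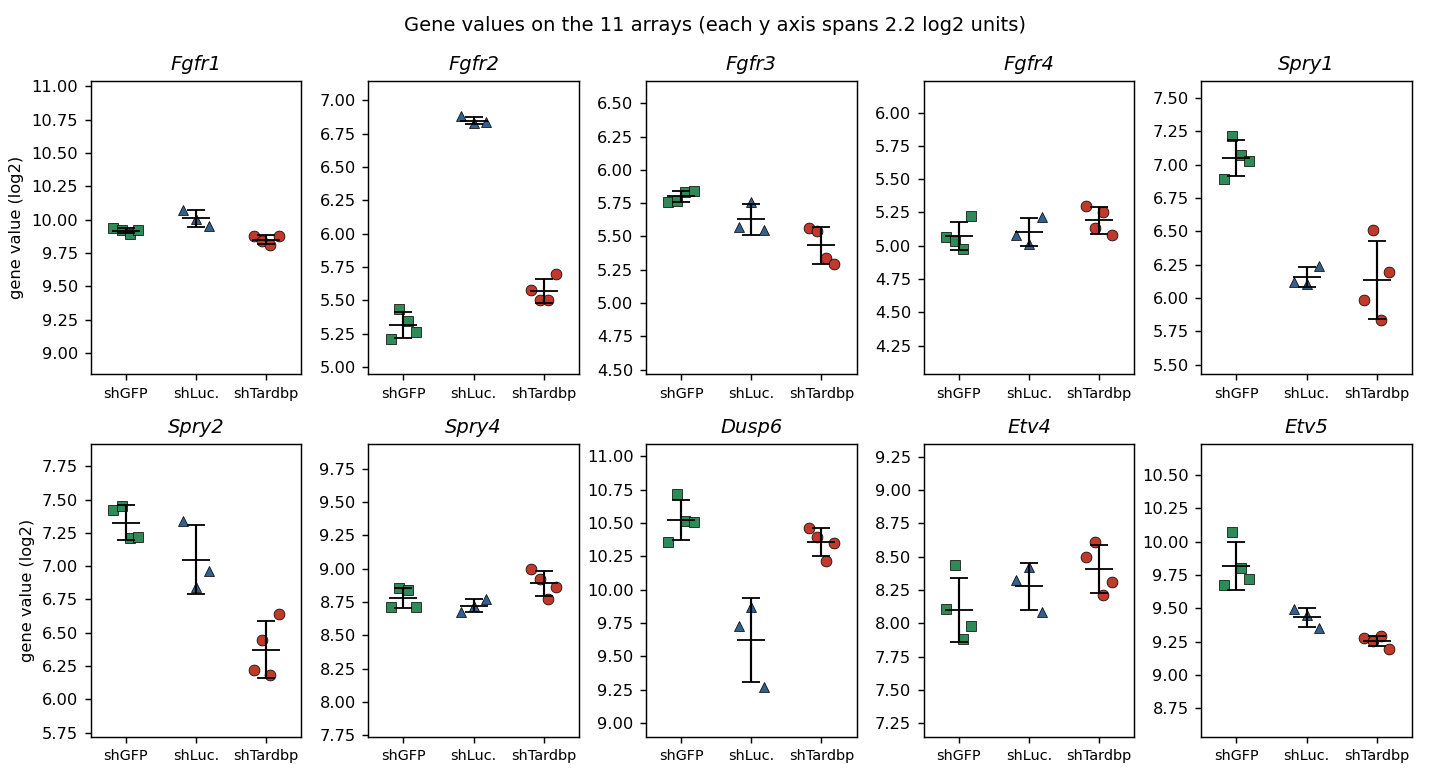
Gene value (log2, y axis) of the 10 genes on each array, by group (x axis; shLuc. is shLuciferase). Points are arrays, bars are the group mean and its SD, and every panel spans the same height. Fgfr2 sits at 6.83 to 6.88 in shLuciferase and at 5.21 to 5.70 elsewhere, and Spry2 at 6.19 to 6.64 in shTardbp, below all controls.

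Of the receptors, Fgfr2, which binds several FGFs and is spliced into epithelial and mesenchymal forms, stood at 5.21, 5.43, 5.35 and 5.26 on shGFP 1, 2, 3 and 5. On shLuciferase 1, 2 and 4 it stood at 6.88, 6.83 and 6.84. On shTardbp 1 to 4 it stood at 5.58, 5.50, 5.50 and 5.70. The shLuciferase line was thus the high one, the other groups lay closer together, and no 2 groups overlapped. Group means were 6.85 ± 0.0283 (SD, n = 3) in shLuciferase, 5.57 ± 0.0920 (n = 4) in shTardbp and 5.31 ± 0.0988 (n = 4) in shGFP. The difference that chose the gene, shGFP minus shLuciferase, was -1.54 on the log2 scale (2.90-fold, 95% confidence interval -1.70 to -1.38) and ranked 16 by size among 15803 genes. In that comparison 11.1% of all genes passed the threshold, 6.26% as higher in shGFP and 4.82% as lower.

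Because the control lines lay on either side of the shTardbp arrays, the comparison of Fgfr2 with both depends on the control. It was 0.26 higher than in shGFP (95% interval 0.11 to 0.41) and lower than in shLuciferase (log2 difference -1.28, 2.43-fold, interval -1.44 to -1.12). Against the mean of the control groups the difference was -0.51 (interval -0.64 to -0.38), and no control array lies near that mean. All 3 values rest on the control values for which the gene was chosen, so no test is given. The gap to shGFP shrank to 0.16 when a gene's value was the median of its probe sets instead of the mean.

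Fgfr2 was read by 24 probe sets, of which 14 lay above the 25th percentile on every array. All 24 were lower in shGFP than in shLuciferase, by -2.94 to -0.29, with a median of -1.42, and in all 24 the values of these groups did not overlap. That gap is the one for which the gene was chosen, so the 24 are a description and no separate evidence. The share of all probe sets without overlap was not counted. The shTardbp mean was below shLuciferase on 24 of 24 and above shGFP on 21 of 24. Probe set 4523298 stood apart. It read 8.95 in shGFP, 9.24 in shLuciferase and 9.12 in shTardbp, the smallest control difference of the 24. At the other end, probe set 5276113 read 3.78, 6.71 and 4.12. Probe set 5434985 was 1 of 3 on which shTardbp lay below shGFP, with 5.70, 7.67 and 5.44. Positions of the probe sets were not used here, so none is assigned to an exon.

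**Figure D2:**
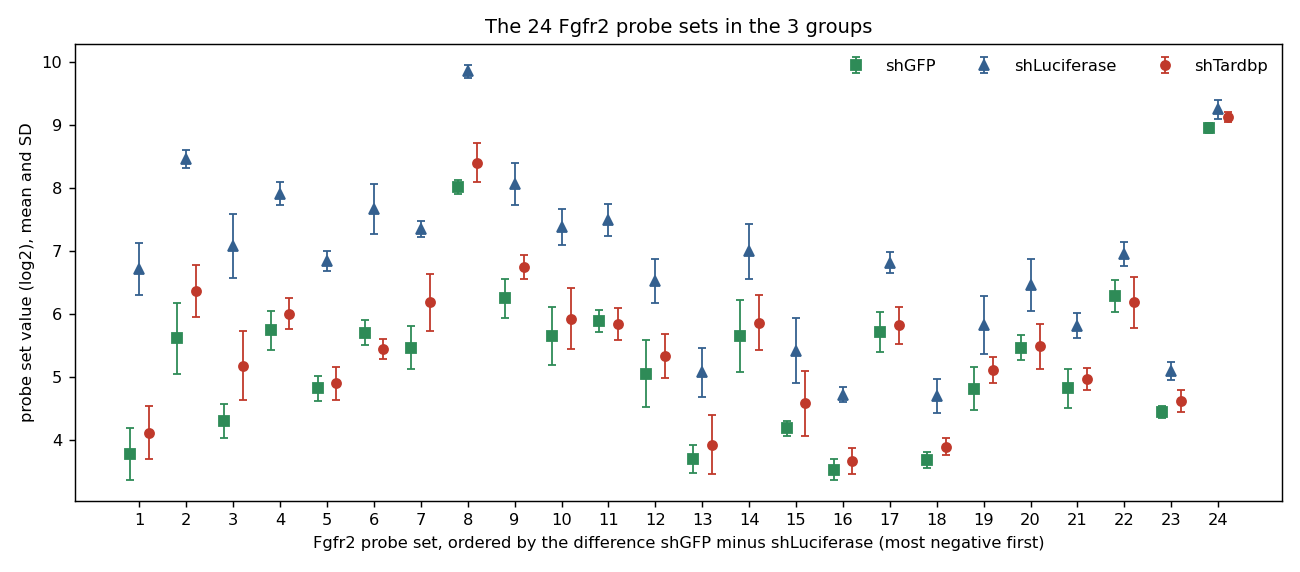
Mean and SD of the 24 Fgfr2 probe sets (log2, y axis) in shGFP, shLuciferase and shTardbp, ordered along the x axis by the difference between the control lines. The shLuciferase mean is the highest at every position, and at the last one (probe set 4523298) the 3 means lie between 8.95 and 9.24.

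Fgfr3, a receptor best known for limiting bone growth, was at 5.76, 5.77, 5.83 and 5.84 in shGFP. It read 5.57, 5.76 and 5.55 in shLuciferase and 5.56, 5.54, 5.34 and 5.29 in shTardbp. The shTardbp arrays lay below all shGFP arrays and overlapped with shLuciferase. The gene fell by 0.28 on the log2 scale against both controls (SE 0.0694, limma adjusted p = 0.00653) and by 0.37 against shGFP (adjusted p = 0.00262). Against shLuciferase the difference was -0.19 (interval -0.38 to -0.01, adjusted p = 0.115). The order of levels was shGFP, shLuciferase, shTardbp, and only the outer 2 were apart. With the median of the probe sets both calls were lost (adjusted p = 0.197 against both controls and 0.176 against shGFP). Over all alternatives the adjusted p against both controls ran from 0.000891 to 0.388. Of its 20 probe sets 17 were lower in shTardbp, and only 12 lay above the 25th percentile on every array.

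Fgfr1, the receptor most widely expressed in the developing nervous system, varied least. In shGFP it read 9.89 to 9.94, in shLuciferase 9.95 to 10.07, and in shTardbp 9.81 to 9.88. These ranges did not overlap, but the steps were small, and the change against both controls was -0.11 (interval -0.22 to -0.0054, limma adjusted p = 0.113). Of 21 probe sets 18 were lower in shTardbp, most of them by little, with a median of -0.06. Probe set 5585364 was the lowest at -0.45, and 4446912, 5466199 and 4770585 were at -0.41, -0.31 and -0.30. Fgfr4, which is prominent in liver and muscle, read 5.08 to 5.30 in shTardbp, 4.98 to 5.22 in shGFP, and on shLuciferase arrays 5.01 to 5.22. Its groups overlapped throughout, and the change was 0.10 (interval -0.05 to 0.25, adjusted p = 0.328). With the median of its 20 probe sets it was 0.25 (adjusted p = 0.0249, in a range of 0.0249 to 0.856).

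To ask whether single probe sets moved apart from the rest of their gene, each was set against the mean of the other probe sets of the gene. Of 60 probe sets in the 7 genes that passed the level filter (Fgfr1, the Sprouty genes, Dusp6, Etv4 and Etv5), 0 passed with limma, where 0.879% of 101898 did. At an unadjusted p under 0.05 there were 11. The share of all probe sets at that level was not counted, so the 11 cannot be called many or few. The nearest was Fgfr1 probe set 5585364, at -0.36 (SE 0.0860, adjusted p = 0.0938). It was the only one of the 60 that limma's diffSplice called (adjusted p = 0.0338), where 1968 of the 101898 were called. Without the filter, 1.36% of 177027 passed, and 2 of the 124, both of Fgfr2, whose usage values rest on the control gap that chose the gene and are given as a description. Of the Fgfr2 probe sets named above, 4523298 was at 0.56 and 5434985 at -0.77. Their usage differences were -0.09 and -0.55 against shGFP and 1.21 and -0.99 against shLuciferase, so that of 4523298 changed sign with the control.

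**Figure D3:**
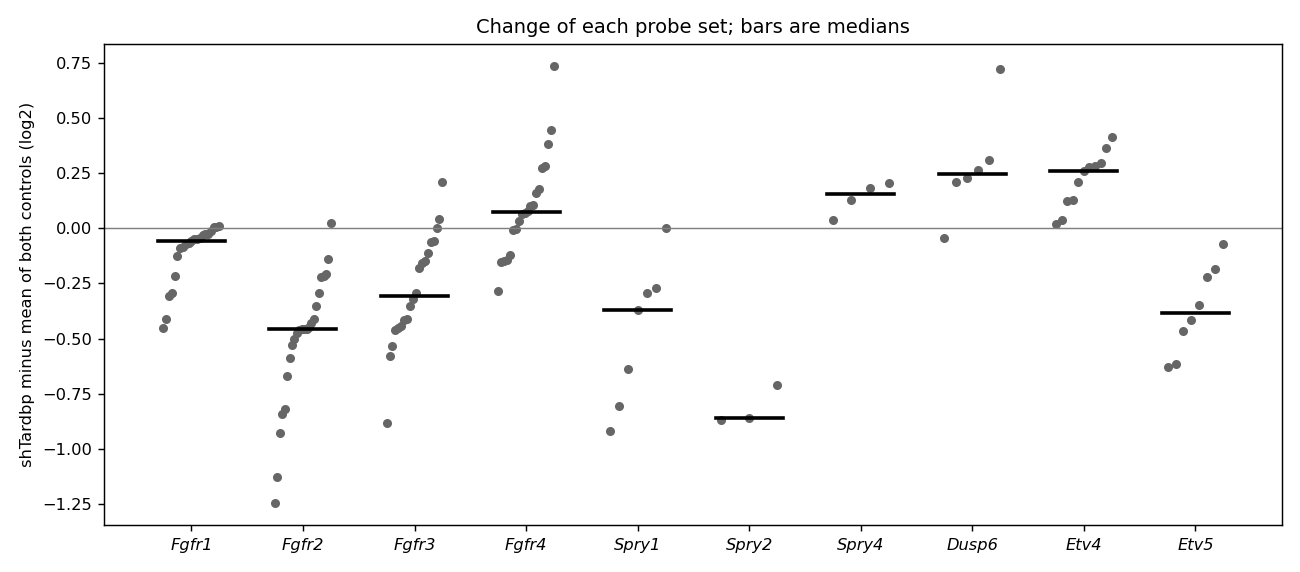
Change of each of the 124 probe sets (log2 difference of shTardbp from both control lines, y axis) by gene (x axis), with the median as a bar. All 3 Spry2 probe sets lie between -0.87 and -0.71, all 8 of Etv5 below 0 and all 11 of Etv4 above it, while those of Fgfr2 spread from -1.25 to 0.02.

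Of the feedback genes, Spry2 had the largest change against both controls, though with the median of the probe sets Spry1 was at -0.77 and Spry2 at -0.73. Its values on shGFP 1, 2, 3 and 5 were 7.42, 7.45, 7.21 and 7.22. Those on shLuciferase 1, 2 and 4 were 7.34, 6.84 and 6.96. On shTardbp 1 to 4 they were 6.22, 6.45, 6.19 and 6.64. All 4 shTardbp arrays lay below all 7 controls, while the control lines overlapped. Spry2 fell 1.76-fold against both controls (log2 -0.81, SE 0.108, limma adjusted p = 5.88e-05). It fell 1.93-fold against shGFP (log2 -0.95, adjusted p = 5.10e-05) and 1.59-fold against shLuciferase (-0.67, adjusted p = 0.00158). All 3 of its probe sets were lower, by -0.87, -0.86 and -0.71. Only on the last, 5518671, did all shTardbp arrays lie below all controls. The first, 4420140, read 7.24 on shTardbp 4, above the 7.07 of shGFP 3. It passed against both controls in all 21 alternatives (adjusted p = 3.56e-05 to 0.0396).

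Spry1 set shGFP apart from the other lines. It stood at 6.89, 7.22, 7.07 and 7.03 in shGFP and at 6.12, 6.11 and 6.24 in shLuciferase. The shTardbp arrays stood at 5.99, 6.51, 5.84 and 6.20. These spread around the shLuciferase values and lay below every shGFP value. The control lines were 0.90 apart (shGFP minus shLuciferase, interval 0.62 to 1.18), with shGFP the higher on all 7 probe sets. Spry1 fell by 0.92 against shGFP (limma adjusted p = 6.91e-05), and its difference from shLuciferase was -0.02 (interval -0.30 to 0.26, adjusted p = 0.946). The -0.47 against both controls (adjusted p = 0.00400) is the mean of these unlike values.

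Dusp6 was also higher in shGFP than in shLuciferase, but here shTardbp lay near shGFP. Values were 10.36, 10.72, 10.51 and 10.51 in shGFP, and 9.72, 9.87 and 9.27 in shLuciferase. In shTardbp they were 10.47, 10.39, 10.22 and 10.35, overlapping with shGFP and above every shLuciferase value. The control lines differed by 0.90 (interval 0.63 to 1.17), with all 6 probe sets higher in shGFP and apart, a share not counted over all probe sets. Dusp6 rose 1.66-fold against shLuciferase (log2 0.73, SE 0.126, limma adjusted p = 0.000661), and its difference from shGFP was -0.17 (interval -0.42 to 0.08, adjusted p = 0.358). Against both controls it was at 0.28 (adjusted p = 0.0562). It passed as higher in 9 of 21 alternatives, in a range of 0.00537 to 0.498. Among them were leaving out shGFP 2 or shLuciferase 2 (adjusted p = 0.0347 and 0.0192), centring the arrays (0.0358), repeated quantile normalization (0.0405) and subtracting the shift of its neighbours (0.0154).

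Spry4 had means of 8.78 ± 0.0775 (SD, n = 4) in shGFP, 8.72 ± 0.0490 (n = 3) in shLuciferase and 8.89 ± 0.0948 (n = 4) in shTardbp. The shTardbp arrays overlapped with shGFP, and the change against both controls was 0.14 (interval 0.0078 to 0.27, limma adjusted p = 0.109). Of the 20 measured genes nearest to Spry4 in gene order, 10 were higher and 0 lower in shTardbp (13.5% and 17.0% of all genes). Their median was 0.22, and Fgf1 was among them. After the shift of those neighbours was subtracted, Spry4 was at -0.11 (adjusted p = 0.191).

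The ETS factor genes parted. Etv5 was at 9.67, 10.07, 9.80 and 9.72 in shGFP, at 9.50, 9.45 and 9.35 in shLuciferase and at 9.28, 9.26, 9.29 and 9.20 in shTardbp. The 3 groups did not overlap and stood in that order. Etv5 fell 1.29-fold against both controls (log2 -0.37, SE 0.0738, limma adjusted p = 0.00152) and 1.48-fold against shGFP (-0.56, adjusted p = 0.000171). Against shLuciferase the step was -0.18 (interval -0.37 to 0.01, adjusted p = 0.183). Etv4 was at 7.88 to 8.44, 8.08 to 8.42 and 8.22 to 8.61 in the same order of groups, and these overlapped. Its change was 0.22 (interval -0.02 to 0.45, adjusted p = 0.166), with all 11 probe sets higher in shTardbp, and it passed without shGFP 2 (adjusted p = 0.0401, in a range of 0.0137 to 0.415).

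Set against each control on its own, the 9 genes other than Fgfr2 gave 4 lower and 0 higher against shGFP (Fgfr3, Spry1, Spry2 and Etv5), where 27.9% of all genes passed, 15.5% as lower and 12.4% as higher. Against shLuciferase 1 was lower (Spry2) and 1 higher (Dusp6), where 26.1% of all genes passed, 14.3% as lower and 11.8% as higher. At an unadjusted p under 0.05 the 9 genes gave 4 lower and 1 higher against shGFP (19.6% and 16.3% of all genes), and 3 lower and 2 higher against shLuciferase (18.8% and 15.9%). In 5 of the 9 the shTardbp values lay apart from all shGFP values, and in 5 from all shLuciferase values, as in 28.5% and 32.0% of all genes. The comparisons share the shTardbp arrays. Spry2 was thus the one gene of these 9 that passed against each control in the same direction, as 17.1% of all genes did, and 0 of the 9 passed in opposite directions (0.487% of all genes). Between the control lines Spry1, Dusp6 and Etv5 were higher in shGFP (0.90, 0.90 and 0.38, groups apart), and Fgfr1, also apart, was at -0.09. In that comparison 20.1% of all genes had control values that did not overlap.

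**Figure D4:**
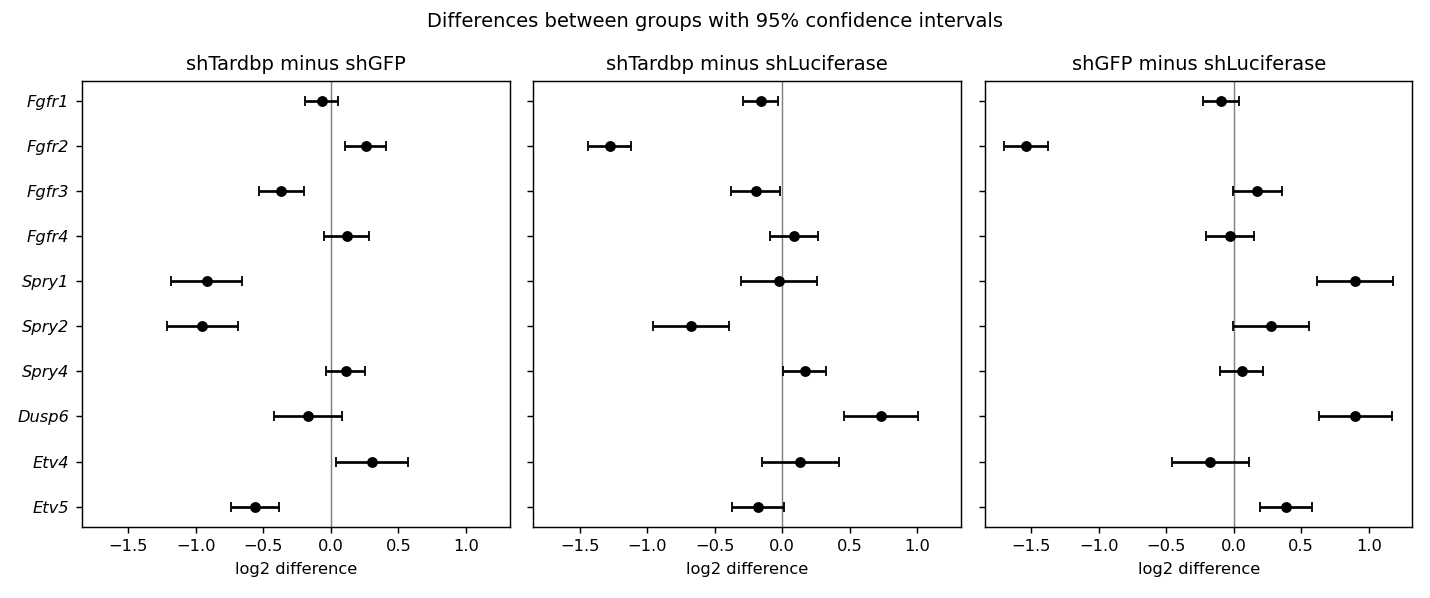
Log2 difference (x axis) of the 10 genes (y axis) for shTardbp minus shGFP, shTardbp minus shLuciferase and shGFP minus shLuciferase, with 95% confidence intervals. Spry2 lies left of 0 against each control (-0.95 and -0.67), Dusp6 right of 0 against shLuciferase (0.73) and between the controls (0.90), where Fgfr2 is at -1.54.

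The labels also code each array with a letter of unstated meaning, P for the shTardbp arrays and shLuciferase 4, C for the rest. As all shGFP arrays are C, the letter cannot be told apart from shTardbp against shGFP. Its effect is estimated only from shLuciferase 4 against shLuciferase 1 and 2. A call that changes with the letter may thus reflect shLuciferase 4 alone. When that letter was fitted as a block, Fgfr3, Spry1 and Etv5 lost their call against both controls (limma adjusted p = 0.388, 0.0863 and 0.221), Spry2 kept its call (0.0396), and Dusp6 passed as higher (log2 0.72, adjusted p = 0.00537). Against shLuciferase alone Spry2 then had adjusted p = 0.0555. Within the P arrays, all 4 shTardbp values of Spry2 (6.19 to 6.64) lay below the 6.96 of shLuciferase 4, and all 4 of Dusp6 (10.22 to 10.47) above its 9.27.

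The neighbours in gene order are given as values beside each gene. Whether a stretch of the chromosome differed between the lines was not tested, and a median over 20 genes can miss a short one. The 20 measured genes nearest to Fgfr2 had a median difference between the control lines of -0.06, from -0.50 to 0.30, beside the -1.54 of Fgfr2. In shGFP 1 of them was higher and 2 were lower. Those nearest to Spry2 had a median change of -0.01 in shTardbp, with 1 higher and 5 lower. Those nearest to Dusp6 had a median of -0.09, with 0 higher and 9 lower (adjusted p under 0.05). In shTardbp against both controls 13.5% of all genes were higher and 17.0% lower. Between the control lines the neighbours of Dusp6 had a median of 0.02, from -0.48 to 1.34, with 4 higher and 1 lower in shGFP. Spry1's neighbours had a median control difference of 0.05, from -0.31 to 0.63, against its own 0.90, with 4 higher and 0 lower in shGFP. Of all genes 6.26% were higher and 4.82% lower in that comparison.

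The sequences before the start sites of Fgfr2, Spry1, Spry2 and Dusp6 are shown because these genes gave the largest differences between groups. They are the 250 bases upstream of each RefSeq start on GRCm38.p6, from a promoter table in which 7 of the 10 genes were matched, written 5′ to 3′ on the strand of the gene. Capitals mark GGAA or, on the other strand, TTCC, the core bound by ETS factors such as Etv4 and Etv5.
Fgfr2 (chr7:130266809-130267058, minus strand): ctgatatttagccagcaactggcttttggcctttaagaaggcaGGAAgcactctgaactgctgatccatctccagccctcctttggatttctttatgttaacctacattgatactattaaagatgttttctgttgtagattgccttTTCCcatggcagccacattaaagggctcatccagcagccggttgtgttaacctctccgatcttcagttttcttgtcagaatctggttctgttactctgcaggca
Spry1 (chr3:37639697-37639946, plus strand): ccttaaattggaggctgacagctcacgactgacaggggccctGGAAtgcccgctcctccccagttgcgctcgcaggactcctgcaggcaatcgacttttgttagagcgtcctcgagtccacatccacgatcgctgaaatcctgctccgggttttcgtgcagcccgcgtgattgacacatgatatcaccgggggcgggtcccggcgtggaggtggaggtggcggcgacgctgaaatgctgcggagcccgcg
Spry2 (chr14:105896820-105897069, minus strand): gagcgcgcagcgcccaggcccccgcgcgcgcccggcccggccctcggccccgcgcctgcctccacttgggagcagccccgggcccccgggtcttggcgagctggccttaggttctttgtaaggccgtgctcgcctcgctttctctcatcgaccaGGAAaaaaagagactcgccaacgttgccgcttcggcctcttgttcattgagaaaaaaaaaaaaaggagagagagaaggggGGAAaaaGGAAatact
Dusp6 (chr10:99262981-99263230, plus strand): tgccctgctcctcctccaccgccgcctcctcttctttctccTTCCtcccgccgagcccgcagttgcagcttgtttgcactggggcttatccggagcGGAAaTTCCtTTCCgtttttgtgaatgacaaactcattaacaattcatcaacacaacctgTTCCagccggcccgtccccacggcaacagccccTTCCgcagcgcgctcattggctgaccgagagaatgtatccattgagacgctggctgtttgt
Dusp6 held 6 such cores, Spry2 3, Fgfr2 2 and Spry1 1. The core is frequent: 93.4% of 32851 RefSeq windows of this length held at least 1, with a median of 3. The longer ETS motif CCGGAAGT was in 2.88% of them and the cyclic AMP response element TGACGTCA in 1.55%, and these 4 windows held neither. The Fgfr2 window had 44.0% G and C and 2 CpG, against 62.4% and 23 in both Spry1 and Spry2 and 56.4% and 16 in Dusp6, with medians of 52.4% and 6 over all windows. A match of letters is a description and not a binding site.

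Around the 10 genes, other parts of the FGF pathway were read from a list of 79 genes, of which 70 were measured. In shTardbp 22 of them rose, 11 fell and 37 did not pass (limma, adjusted p under 0.05), with a median of 0.06, while 13.5% and 17.0% of all genes rose and fell. The list is of higher level than all genes. Above the 25th percentile on every array lay 59 of the 70, and 10649 of the 15803. When only the 7901 genes above the median level were fitted, 4016 of them passed. The part of level in the pathway counts was not tested. Of the 21 Fgf genes in the ligand list, not all of which encode secreted ligands, 3 rose and 0 fell. Fgf1, which binds all FGF receptors, was at 5.84 to 5.91 in shTardbp, 5.45 to 5.61 in shGFP and 4.90 to 5.07 in shLuciferase, and rose by 0.63 (SE 0.0570, adjusted p = 2.39e-06). It lies among the neighbours of Spry4, 10 of which were higher. Fgf11 and Fgf14, FGF homologous factors that stay inside the cell and bind sodium channels, rose by 0.61 and 0.34 (adjusted p = 8.53e-05 and 0.000412). Of the other 18 Fgf genes none passed, and their changes ran from -0.21 (Fgf7) to 0.16 (Fgf9).

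Of 9 co-receptors and membrane partners 5 rose and 1 fell. Flrt1, a membrane protein that binds FGF receptors, rose by 0.74 ( SE 0.0728, limma adjusted p = 4.60e-06), with 8.20 to 8.46 in shTardbp and 7.31 to 7.67 in the controls. L1cam, an axonal adhesion molecule, rose by 0.46 (adjusted p = 0.00103). Flrt3 fell by 0.46 (adjusted p = 0.00948), but its difference from shGFP was -0.13 (adjusted p = 0.584) and the call was lost with the median of the probe sets (adjusted p = 0.547). The Klotho genes Kl and Klb, needed by endocrine FGFs, lay at or below the 25th percentile on every array.

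Among 9 adaptor genes 2 rose, Plcg1, the phospholipase bound by activated receptors, by 0.33 (adjusted p = 0.000963, limma) and Shc1 by 0.32 (adjusted p = 0.000184). Frs2 was at 0.10 (adjusted p = 0.296). Of 7 genes from Ras to ERK 2 rose and 2 fell. Mapk3, which encodes ERK1, rose by 0.33 (adjusted p = 0.00990), with 0.48 against shLuciferase and 0.18 against shGFP (adjusted p = 0.217), and the scaffold gene Ksr1 fell by 0.29 (adjusted p = 0.00599). Map2k1 (0.22, adjusted p = 0.0456) passed as higher against both controls, but its difference from shGFP was -0.06 (adjusted p = 0.729), and from shLuciferase 0.50. Its call was lost on leaving out any one of 8 arrays, namely shGFP 1, 2 and 5, shLuciferase 2 and 4, and shTardbp 2, 3 and 4 (adjusted p = 0.0572 to 0.163).

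Of 11 other inhibitors 6 rose and 4 fell. Dusp9, a phosphatase of ERK, fell by 0.63 (SE 0.0879, limma adjusted p = 8.59e-05) and the Ras GTPase-activating gene Rasa3 by 0.51 (adjusted p = 0.000140). Il17rd, a membrane inhibitor of FGF signalling also called Sef, rose by 0.52 (adjusted p = 1.13e-05). Its values were 8.53 to 8.64 in shTardbp, 7.57 to 7.70 in shGFP and 8.36 to 8.52 in shLuciferase. The rise was thus 0.93 against shGFP and 0.11 against shLuciferase (adjusted p = 0.310). Of 13 other ERK targets 4 rose and 4 fell. Myc fell by 0.59 (SE 0.0582, adjusted p = 5.09e-06), with 11.06 to 11.27 in shTardbp and 11.45 to 12.00 in the controls. Phlda1 rose by 0.57 (adjusted p = 0.00127). Fos rose by 0.38 (adjusted p = 0.000973), with a difference of 0.08 from shGFP (adjusted p = 0.550). With the code letter fitted as a block, Fgf11, Fgf14, Flrt3, Mapk3, Ksr1, Map2k1, Rasa3, Phlda1 and Fos lost their calls (adjusted p = 0.0647 to 0.636). The letter effect in that fit rests on shLuciferase 4.

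**Figure D5:**
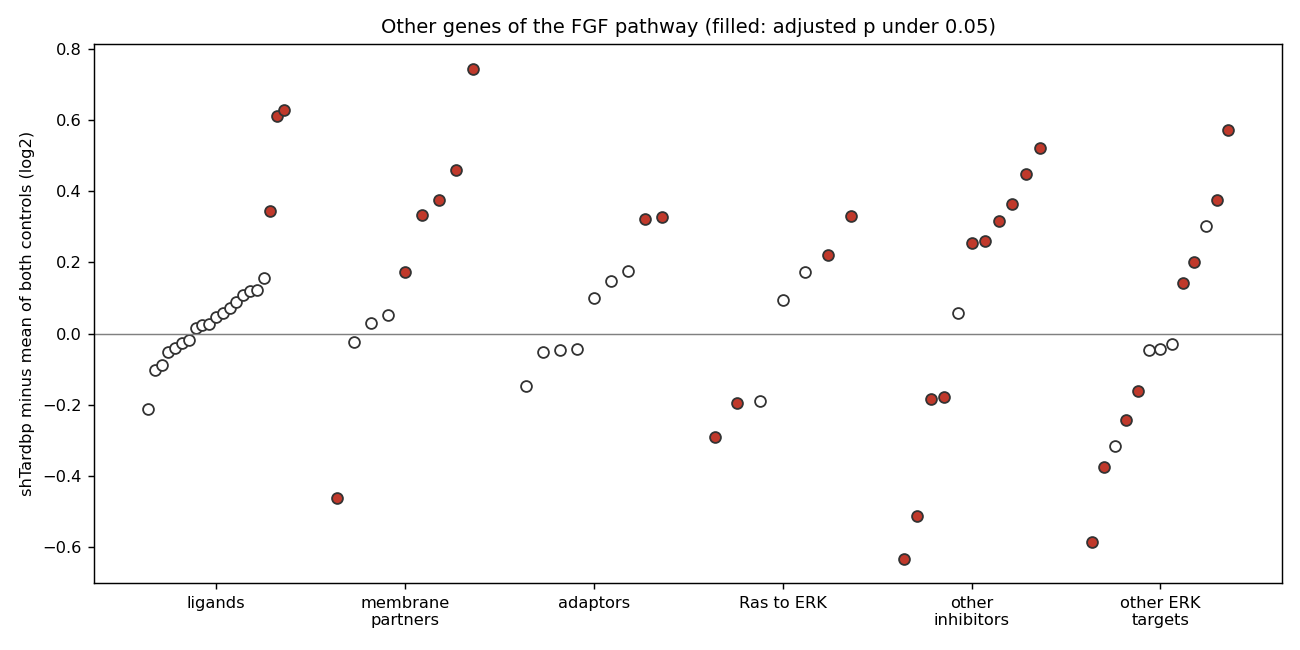
Change in shTardbp against both controls (log2, y axis) of the 70 other FGF pathway genes by role (x axis), filled where the adjusted p was under 0.05. Changes run from -0.63 (Dusp9) to 0.74 (Flrt1), and 22 genes are filled above 0 and 11 below.

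Genes with a pattern most like Fgfr2 were sought by the root mean square distance of log2 values over the 11 arrays, each gene centred on its mean, among 14481 named genes. The nearest were Gper (0.183), a membrane oestrogen receptor, the sodium-calcium exchanger Slc8a2 (0.222), the transglutaminase Tgm5 (0.222), Id2 (0.230), an inhibitor of helix-loop-helix factors, and Smad9 (0.242), a mediator of BMP signals. The distance of Fgfr2 from a flat line was 0.641. Gper, for example, had means of 7.08 in shLuciferase, 5.78 in shGFP and 5.88 in shTardbp. For Spry2 the nearest were Efcab2 (0.150), Clip4 (0.152), Nudt5 (0.158), the mitotic kinesin Kif18a (0.160) and the cell adhesion gene Dscam (0.166), against 0.449 for a flat line. Kif18a had means of 7.80 in shTardbp, 8.76 in shGFP and 8.50 in shLuciferase.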

How the data were processed

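The authors deposited log2 expression values of 194293 probe sets on 11 Affymetrix whole-transcript arrays, per the file and labels; Partek and RMA are named per the submitters' processing notes. Settings and build: not given in the sources used here. Annotation of the platform gave 179496 probe sets 1 symbol, 1328 several and 13469 none, and only the first were used. A gene's value is the mean of its probe sets. One model of the 3 groups over 15803 genes was fitted with limma 3.58.1 in R 4.3.3, with no low-value filter and no detection calls, and p-values were Benjamini-Hochberg adjusted over all genes (threshold 0.05). The number of arrays limits the precision.

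Usage was tested likewise on each probe set minus the mean of the others of its gene, for probe sets above the 25th percentile, in genes of 3 or more probe sets whose level exceeded the median. Neighbours were the 10 measured genes on either side in the GRCm38.p6 RefSeq order. The tests were tried on simulated data. The 10 genes, the lists and the tests were chosen with earlier results of these data known. Named pathway genes are the up to 3 largest called changes per role, by rule, and the genes used only for contrast (Frs2, Fgf7, Fgf9, Kl and Klb) were named after their values were seen.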

Additional observations from a re-analysis of the deposited data

Results flagged for a closer look

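Of 54 groups of 4 arrays looked at (the 10 genes and the 17 named pathway genes, in shGFP and shTardbp), 2 held an array far from the other 3, about what chance gives at 1 in 20. Fgf11 was at 6.73 on shTardbp 1, below the 6.91 to 6.93 of the other shTardbp arrays. Mapk3 was at 10.88 on shTardbp 2, above the 10.52 to 10.55 of the others. None of the 10 receptor and feedback genes had such an array in these 2 groups, and the 3 shLuciferase arrays were too few for the rule.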

How the results depend on the processing

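With a block for the array code letter (its effect rests on shLuciferase 4), Spry2 and Dusp6 passed against both controls of the 9 genes without Fgfr2. Of these 9, 2 passed against shGFP and 1 against shLuciferase, and 13 pathway genes passed against both controls. Fgfr4 turned to -0.0407. Over all genes 2509, 1933 and 2977 passed against both controls, shGFP and shLuciferase, instead of 4825, 4416 and 4120. Array weights gave 5 of 9 against shLuciferase, where 5427 of all genes passed. The median of the probe sets gave 20 pathway genes, where 3643 of all genes passed against both controls. Subtracting the neighbours' shift turned Spry4 to -0.11. Unfiltered usage gave none outside Fgfr2, and diffSplice 1 of the 60 probe sets and 1968 of all 101898. Leaving out 1 array at a time gave 5 to 7 of the 10 genes against both controls, beside 5 with all arrays. Both counts include Fgfr2, whose difference rests on the values that chose it, and are no test of it. Of the 9 without Fgfr2, 4 to 5 passed against shGFP and 2 to 3 against shLuciferase. Over all genes 4093 to 4984, 3765 to 4710 and 3361 to 4220 passed against both controls, shGFP and shLuciferase. The same settings gave 25 to 34 pathway genes and 0 to 1 probe sets (Spry1 probe set 5049706, without shTardbp 2). The cause of these shifts was not tested. The labels tie replicate numbers to nothing shared. Deviations of same-numbered arrays had r from -0.06 to 0.26 over 8 pairs (median 0.12, 5 over 0.1), against a median of -0.01 over 32 other pairs, and 5 of 11 arrays correlated best with their own number. As not every pair was over 0.1, the numbers were not taken to pair the arrays. With the replicate block Fgfr3, Spry1, Spry2 and Etv5 passed as lower against both controls, and Dusp6 and Etv4 as higher. Of the 9 without Fgfr2, 5 passed against shGFP and 2 against shLuciferase, with 27 pathway genes and 0 probe sets. Over all genes 4699, 3937 and 3962 passed against both controls, shGFP and shLuciferase. Fgfr2's control difference ran from -1.60 to -1.49 over its 20 alternatives. Fgfr4 and the Fgfr2 and Fgfr3 probe sets not above the 25th percentile on every array lie near background, where a change may be understated.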
